A study of Mus musculus with 8 samples.

Results

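The transcripts of the p53 pathway were followed in mouse hepatocytes that express the zinc finger protein Zfp125. The list held 30 genes: the transcription factor, its direct regulators and genes that it activates. Every transcript cluster (the array's unit of measurement, a set of probes for 1 transcript region) that names 1 of these genes was taken, which gave 28 clusters of 27 genes among the 41345 clusters of the array. Trp53, Bax and Gdf15 are not analysed here. Of the 28 clusters, 3 also carry the symbol of another gene, and their values cannot be assigned to 1 gene: that of Ddb2 also names Acp2, that of Gadd45a also names E230016M11Rik, and 1 of the pair of Zmat3 clusters also names 4930429B21Rik.

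The arrays compared AML12 cells with stable expression of Zfp125 (4 arrays, written Zfp125) and AML12 cells carrying the empty vector (4 arrays, written EV). AML12 is a hepatocyte line from the liver of a mouse transgenic for human transforming growth factor alpha. Both kinds of cells were under G418 selection and in control medium. The labels do not say whether the arrays of a group come from separate cultures or whether a line is 1 clone, and the spread behind each p-value may be technical. Zfp125 itself is not analysed here, since no cluster is annotated with it, and the level of the expressed gene gives no check of the group labels.

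The protein p53 is a transcription factor that is kept at a low level by Mdm2, an E3 ubiquitin ligase, and by the related Mdm4. After DNA damage or other stress, kinases release it from Mdm2, and it then activates genes that halt the cell cycle, repair DNA, temper metabolism or start apoptosis. Mdm2 is itself such a gene, which closes a feedback loop, and Cdkn1a, the gene of the cell cycle inhibitor p21, is the best known one. In liver the pathway is known for restraining hepatocyte proliferation after injury. The activity of p53 is set largely through protein stability and modification, which expression arrays do not measure.

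Values are log2 expression as the authors deposited them, and a change is the mean of Zfp125 minus that of EV, with its standard error from limma. The arrays were alike, with medians over all clusters of 4.32 to 4.37 and correlations between any pair of arrays of 0.977 to 0.984. Hepatocyte markers were high on average: their mean over 10 clusters was 9.08 to 9.38 on the Zfp125 arrays and 9.60 to 9.86 on the EV arrays. Not all were high: Alb was at 12.48 in Zfp125 and 12.96 in EV, but Serpina1a at 5.04 and 5.15. Of the 10, 9 had a change below 0, beside 50.3% of all clusters, and the median of the list was -0.49. At an unadjusted p under 0.05 there were 8 lower and 0 higher, and 8 had all Zfp125 arrays below all EV arrays. For all clusters these downward shares were 4.52% and 3.03%. Among these markers the fibrinogen chain Fgb fell by 1.21 ± 0.17 (limma adjusted p = 0.0376). The part of this marker difference in the values of the p53 pathway was not tested. The array means of markers of stellate cells and fibroblasts were 4.31 to 4.42 in Zfp125 and 4.32 to 4.43 in EV. Those of endothelial markers were 4.16 to 4.38 in Zfp125 and 4.31 to 4.38 in EV, and those of macrophage and leukocyte markers 3.97 to 4.09 in Zfp125 and 3.92 to 4.18 in EV. Biliary markers, which include Sox9 and Krt19, were at 6.11 to 6.31 in Zfp125 and 6.15 to 6.27 in EV. That mean covers unlike levels: Sox9 was at 10.04 in Zfp125 and 9.75 in EV, and Epcam at 2.76 and 2.73. Sox9 had a change of 0.28 ± 0.09 with groups that did not overlap (limma adjusted p = 0.315), and the groups overlapped for the rest of that list. None of the 28 clusters of these other cell types was called changed.

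Promoter sequences of 3 members are shown first, since Btg2 had the smallest p of the list and Ccng1 and Mdm2 are regulators of p53 whose own transcripts p53 induces. They are RefSeq sequences of the build GRCm38.p6, from 250 bases before to 50 bases after the transcript start, each on the strand of its gene, which is the minus strand for all 3. The Btg2 window is chr1:134079106-134079405, that of Ccng1 is chr11:40755237-40755536 and that of Mdm2 is chr10:117710709-117711008. Capitals mark, in Ccng1 and Mdm2, a match to the consensus decamer of the p53 response element, and, in Btg2, a match to the cAMP response element TGACGTCA.
Btg2: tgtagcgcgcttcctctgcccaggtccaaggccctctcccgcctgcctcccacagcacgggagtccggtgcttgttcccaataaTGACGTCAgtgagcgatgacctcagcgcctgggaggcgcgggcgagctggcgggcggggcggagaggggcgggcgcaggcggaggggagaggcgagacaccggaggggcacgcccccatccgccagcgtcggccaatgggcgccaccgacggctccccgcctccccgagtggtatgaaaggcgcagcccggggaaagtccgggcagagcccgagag
Ccng1: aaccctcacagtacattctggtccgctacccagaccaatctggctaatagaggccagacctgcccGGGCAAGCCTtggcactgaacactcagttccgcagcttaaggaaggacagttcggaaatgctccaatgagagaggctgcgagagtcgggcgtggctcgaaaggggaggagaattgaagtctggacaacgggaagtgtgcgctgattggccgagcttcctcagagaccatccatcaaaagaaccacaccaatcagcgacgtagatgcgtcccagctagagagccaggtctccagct
Mdm2: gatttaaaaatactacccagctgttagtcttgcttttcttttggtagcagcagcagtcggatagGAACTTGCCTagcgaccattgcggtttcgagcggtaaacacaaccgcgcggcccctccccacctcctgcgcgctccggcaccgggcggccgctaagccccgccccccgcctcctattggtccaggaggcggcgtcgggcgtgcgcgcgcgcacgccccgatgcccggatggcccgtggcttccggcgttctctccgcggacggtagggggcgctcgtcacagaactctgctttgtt

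RefSeq windows were found for 19 of the 27 measured members (25 windows). The consensus decamer, searched by its IUPAC pattern, which reads the same on both strands, occurred in 8 of these 25 windows, belonging to 7 genes, and in 8.36% of all 32851 windows of the same length. The windows of Aen overlap and hold the same decamer, which was counted in both. For Polk and Sesn1 another window of the gene had no match. Because the members were listed as p53 targets, the share of windows with a match is a description and was not tested. A pair of decamers no more than 13 bases apart, the form of a complete response element, occurred in 0 member windows and in 0.0731% of all windows. No match says only that this pattern is not in the window. A match says only that the pattern is there, since binding of p53 was not measured. The decamers are printed to show how they differ between members, with the consensus core in the middle.
Aen: GGGCTTGTCC
Ccng1: GGGCAAGCCT
Ei24: GGGCATGCCC
Gadd45a: GGGCTAGCCC
Mdm2: GAACTTGCCT
Polk: GAACTAGCCT
Sesn1: AAGCTTGTTT

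The cAMP response element, also the same on both strands, was in 2 of the 25 windows, those of Btg2 and Plk2, and in 1.79% of all windows. The search for it was added after the values were seen. Of the 7 genes with a decamer, 0 were called changed, beside 0.123% of all clusters called lower and 0.0242% called higher. No member outside these 7 was called either. In both sets the changes ran in both directions, as the values by role below show, so these counts do not set the decamer genes apart.

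The transcripts of the listed members differed little between Zfp125 and EV cells. Cdkn1a is not among them, and its lower values are given with the wider pathway below. Of the 28 member clusters, 0 fell and 0 rose at a limma adjusted p under 0.05, beside 0.123% of all clusters called lower and 0.0242% called higher. All members lay above the median cluster level. Among those brighter clusters, fitted alone, again 0 members were called, beside 0.706% lower and 0.416% higher. A level above the median does not show that a member is expressed. Sesn1 (4.53 in Zfp125, 4.50 in EV) and Eda2r (5.03 and 5.40) lay below the fibroblast marker Col1a1 (5.57 and 5.52). The changes of the members lay between -0.50 (Pmaip1) and 0.18 (Xpc). Every 95% interval lay within 1 log2 unit of 0, the lowest bound being -0.90 (Pmaip1) and the highest 0.48 (Ddb2). A change of 1 log2 unit or more was therefore outside the interval of each member, and the intervals reached 0.18 to 0.41 to either side of the estimate.

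At an unadjusted p under 0.05 there were 4 clusters lower in Zfp125 cells (Btg2, Trp53inp1, Pmaip1 and Eda2r) and 0 higher, so 14.3% and 0% of the members, beside 4.52% and 4.91% of all clusters and 5.93% and 7.59% of the brighter ones. All 4 Zfp125 arrays lay below all 4 EV arrays in 3 member clusters, or 10.7%, and above them in 0. Such separation downward occurred in 3.03% of all clusters and 4.18% of the brighter ones, and upward in 3.2% and 4.86%. The median change of the members was -0.06, beside -0.00095 over all clusters, and 16 of 28 members had a change below 0, beside 50.3% of all clusters. The count of 4 depends on single arrays: without EV replicate 1 it was 2, with Btg2 and Trp53inp1 left, and without Zfp125 replicate 1 it was also 2, with Btg2 and Pmaip1 left. The count of 0 higher was 1 without Zfp125 replicate 1 (Mdm4) and 1 without Zfp125 replicate 4 (Xpc).

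**Figure D1:**
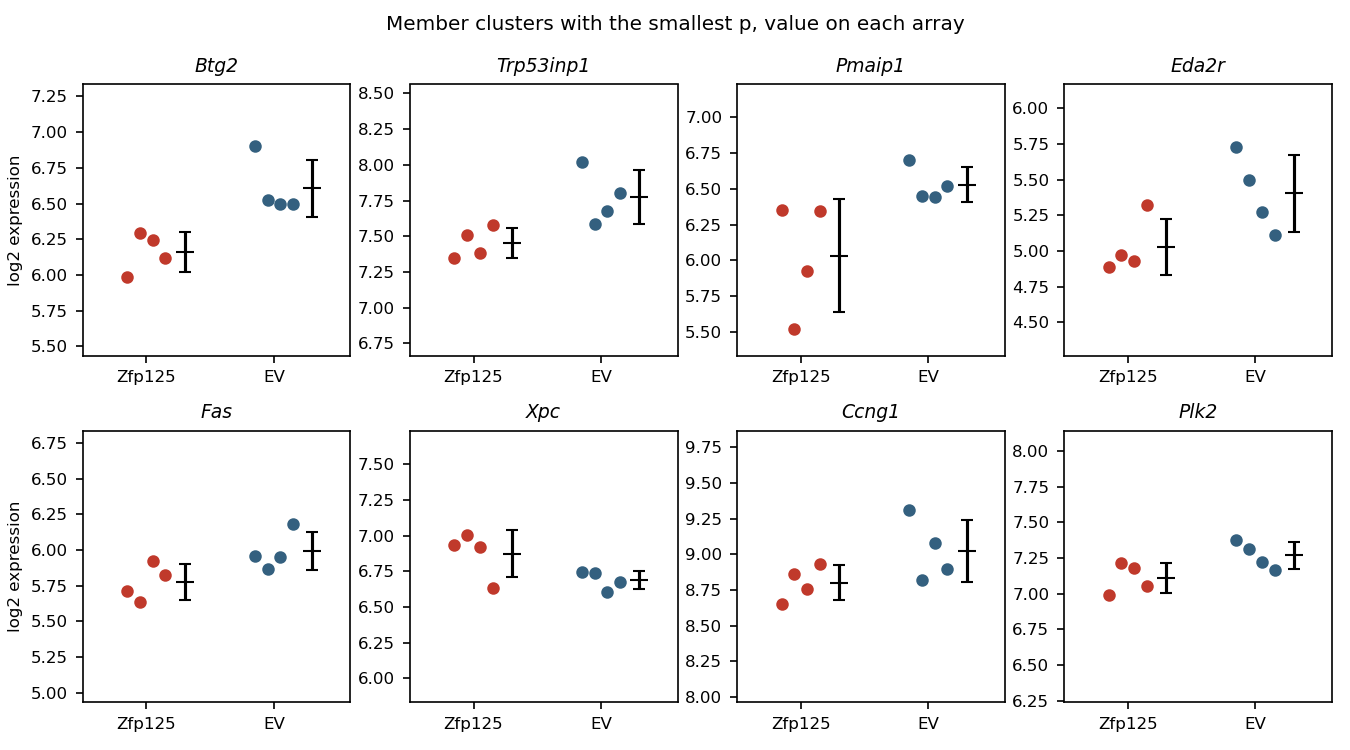
Log2 expression (vertical axes, each spanning the same range) on each of 4 Zfp125 arrays (red) and 4 EV arrays (blue), for the 8 member clusters with the smallest p; within a group, points run from replicate 1 to 4, and the black mark gives mean and SD. The groups do not overlap for Btg2, Trp53inp1 and Pmaip1 and overlap for the other 5; EV replicate 1 is the highest EV point for Btg2, Trp53inp1, Pmaip1, Eda2r, Xpc, Ccng1 and Plk2.

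Among the regulators of p53, Mdm2 and Ccng1 were slightly lower and Mdm4 slightly higher in Zfp125 cells, none past the test. Mdm2, the ubiquitin ligase, had values of 7.47, 7.53, 7.58 and 7.64 on the Zfp125 arrays, against 7.70, 7.66, 7.75 and 7.59 on the EV arrays. Only Zfp125 replicate 4 reached into the EV range, and the change was -0.12 ± 0.08 (limma adjusted p = 0.713). Ccng1, cyclin G1, a p53 target that acts back on Mdm2 through a phosphatase, had 8.66, 8.86, 8.75 and 8.93 in Zfp125 cells, against 9.31, 8.82, 9.08 and 8.90 in EV cells. The groups overlapped, with EV replicate 1 highest, and the change was -0.22 ± 0.12 (limma adjusted p = 0.626). Mdm4, which binds p53 and blocks its activation domain, had 6.72, 6.98, 7.06 and 7.06 in Zfp125 cells, against 6.88, 6.61, 6.85 and 6.76 in EV cells. Here 3 Zfp125 arrays were above all EV arrays and replicate 1 was not, with a change of 0.18 ± 0.11 (limma adjusted p = 0.666).

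Of the genes listed under mitochondrial apoptosis, Pmaip1 and Bbc3 had changes below 0 and Apaf1 and Ei24 above 0, none past the test. Pmaip1 encodes Noxa, a BH3-only protein that neutralises Mcl-1, and had 6.35, 5.52, 5.92 and 6.34 in Zfp125 cells, against 6.70, 6.45, 6.44 and 6.52 in EV cells. The groups did not overlap, but the Zfp125 arrays were widely spread: replicates 2 and 3 were far below the EV arrays and replicates 1 and 4 close to them. The mean was 6.03 ± 0.40 in Zfp125 cells and 6.53 ± 0.12 in EV cells (SD, n = 4 each), a change of -0.50 ± 0.18, or 1.41-fold lower, which did not pass the test (limma adjusted p = 0.418). Without Zfp125 replicate 2 this change was -0.32 ± 0.13.

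Bbc3 encodes Puma, the other BH3-only protein of the list. It had 5.73, 5.13, 5.40 and 5.56 in Zfp125 cells, against 5.60, 5.81, 5.53 and 5.54 in EV cells, again with Zfp125 replicates 2 and 3 lowest (change -0.16 ± 0.13, limma adjusted p = 0.774). Apaf1, the scaffold of the apoptosome, and Ei24, a protein of the endoplasmic reticulum, had changes of 0.08 ± 0.10 and 0.11 ± 0.13. Both groups overlapped for each of these genes.

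Of 6 genes for death receptors and other death effectors, 0 passed the test. A change below 0 was seen in 5, beside 50.3% of all clusters, and that of Tnfrsf10b turned sign in some alternative fits or omissions of an array. Eda2r, a receptor for ectodysplasin A2, had 4.89, 4.97, 4.93 and 5.32 in Zfp125 cells, against 5.73, 5.50, 5.27 and 5.11 in EV cells. Zfp125 replicate 4 lay inside the EV range and the other Zfp125 arrays below it, with a change of -0.38 ± 0.15 (limma adjusted p = 0.479). Fas, the receptor of Fas ligand, which makes hepatocytes sensitive to killing, had 5.71, 5.64, 5.92 and 5.83 in Zfp125 cells, against 5.96, 5.87, 5.95 and 6.18 in EV cells. The change of Fas was -0.22 ± 0.10 (limma adjusted p = 0.565). Pidd1, a death domain protein that activates caspase-2, and Aen, a nuclease, had changes of -0.19 ± 0.18 and -0.09 ± 0.09. Tnfrsf10b, the receptor of the ligand TRAIL, and Perp, a desmosomal membrane protein, had changes of -0.00351 and 0.00184 with intervals from -0.24 to 0.23 and from -0.18 to 0.18.

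Genes that restrain growth and survival held the 2 smallest p-values of the list. Of their 8 clusters 7 had a change below 0, beside 50.3% of all clusters. That count holds both clusters of Zmat3, and also Phlda3, whose change of -0.02 turned sign in some alternative fits or omissions of an array. Btg2, an antiproliferative protein that recruits the deadenylase complex to mRNA, had 5.99, 6.30, 6.24 and 6.12 in Zfp125 cells, against 6.90, 6.53, 6.50 and 6.50 in EV cells. All Zfp125 arrays were below all EV arrays, and EV replicate 1 stood above the other 3 EV arrays. The mean was 6.16 ± 0.14 in Zfp125 cells and 6.61 ± 0.20 in EV cells (SD, n = 4 each). The change of -0.45 ± 0.12, or 1.36-fold lower, did not pass the test (limma adjusted p = 0.249). Without EV replicate 1 it was -0.35 ± 0.10.

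Trp53inp1, a stress protein of autophagy and cell death, had 7.34, 7.51, 7.38 and 7.58 in Zfp125 cells, against 8.02, 7.58, 7.68 and 7.80 in EV cells. The groups did not overlap, though Zfp125 replicate 4 and EV replicate 2 nearly touched. The change was -0.32 ± 0.11 (limma adjusted p = 0.395), and -0.24 ± 0.10 without EV replicate 1. Plk2 and Plk3, polo-like kinases of the stress response, had changes of -0.16 ± 0.09 and -0.15 ± 0.10. Zmat3, an RNA-binding protein that regulates splicing, had changes of -0.16 ± 0.14 in the cluster that names it alone and -0.12 ± 0.12 in the shared cluster. Phlda3, an inhibitor of Akt, was at 6.52 ± 0.07 in Zfp125 cells and 6.54 ± 0.09 in EV cells (SD, n = 4 each). The shared cluster of Gadd45a, a growth arrest protein, was at 7.34 ± 0.04 in Zfp125 cells and 7.29 ± 0.14 in EV cells (SD, n = 4 each), a change of 0.05 ± 0.09.

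The metabolic and DNA repair members had no change below 0, beside 50.3% of all clusters, and none passed the test. The changes of Sesn1, Tigar, Polk and Ercc5 turned below 0 in some alternative fits or omissions of an array, so their signs are not settled. Sesn1, a sestrin that restrains mTORC1, and Tigar, a fructose bisphosphatase that lowers glycolytic flux, had changes of 0.03 ± 0.14 and 0.08 ± 0.11. Xpc, the damage sensor of global nucleotide excision repair, had 6.94, 7.01, 6.92 and 6.63 in Zfp125 cells, against 6.74, 6.74, 6.61 and 6.67 in EV cells. Of the Zfp125 arrays, 3 were above all EV arrays and replicate 4 was not, with a change of 0.18 ± 0.10 (limma adjusted p = 0.624). The shared cluster of Ddb2, which hands ultraviolet lesions to Xpc, had a change of 0.17 ± 0.14. The incision nuclease Ercc5, the translesion polymerase Polk and the ribonucleotide reductase subunit Rrm2b had changes of 0.00541, 0.01 and 0.07. Their intervals reached from -0.24 to 0.26 at most, so a change past either bound was outside them.

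**Figure D2:**
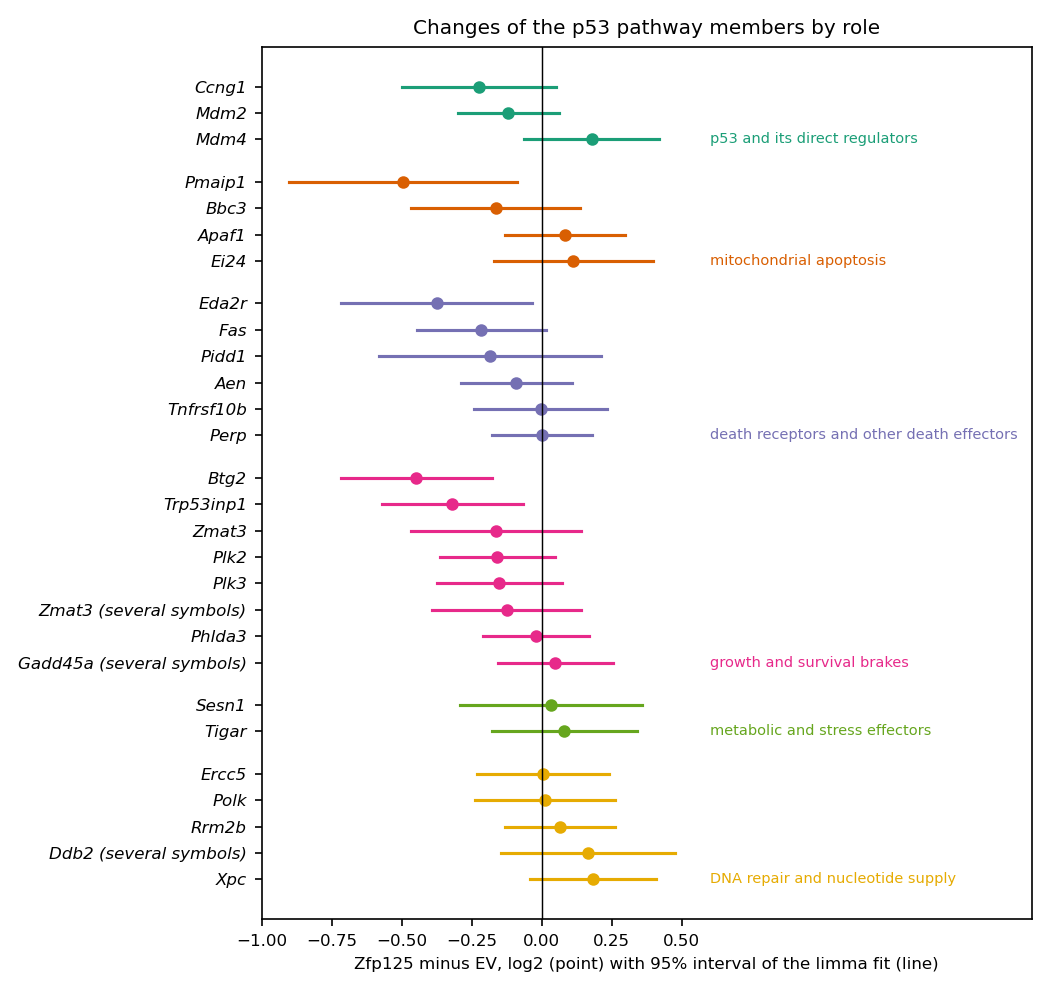
Change of each of the 28 member clusters (horizontal axis, Zfp125 minus EV on the log2 scale), grouped by role; points are limma estimates and lines 95% intervals, not adjusted for the number of members. The intervals of Pmaip1, Eda2r, Btg2 and Trp53inp1 leave out 0, and all 28 lie between -1 and 1.

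The arrays of a group did not contribute evenly. EV replicate 1 held the highest value of the 4 EV arrays in 15 of 28 member clusters, while over all 41345 clusters it did so in 26.1%. Zfp125 replicate 1 held the lowest value of the 4 Zfp125 arrays in 13 of 28 member clusters, and in 24.1% of all clusters. The median deviation of the members from their EV mean was -0.10, -0.01, -0.04 and -0.06 on the Zfp125 arrays and 0.06, -0.02, -0.04 and -0.05 on the EV arrays. By that measure the groups overlapped, and EV replicate 1 was the 1 array above 0. These counts were made after the values were seen, and the part of these arrays in the members' values was not tested beyond leaving each out.

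**Figure D3:**
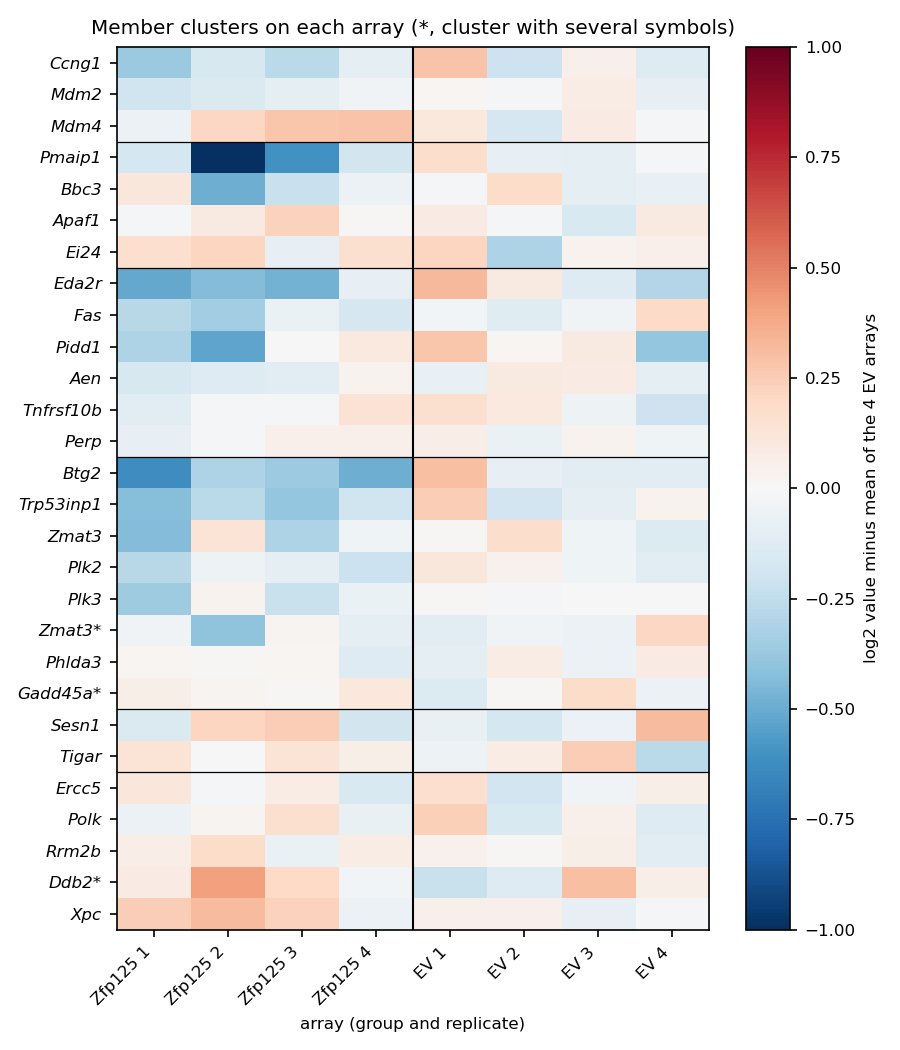
Log2 value of each member cluster minus its mean over the 4 EV arrays (colour, from -1 to 1), with arrays in columns (Zfp125 replicates 1 to 4, then EV replicates 1 to 4) and clusters in rows, ordered by role. All 4 Zfp125 arrays lie below the EV mean (blue) for Btg2, Trp53inp1, Pmaip1, Eda2r, Fas, Ccng1, Plk2 and Mdm2; Pmaip1 is darkest on Zfp125 replicate 2, where its value is just past the end of the colour scale.

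The wider pathway was read through 5 further lists with 114 measured genes in 128 clusters. In them 1 cluster, or 0.781%, fell and 0 rose, beside 0.123% and 0.0242% of all clusters in the same fit. Of the brighter clusters, fitted alone, 0.706% fell and 0.416% rose, but not all of the 128 clusters are among those. At an unadjusted p under 0.05 there were 6 lower (4.69%) and 5 higher (3.91%), near the 4.52% and 4.91% of all clusters. These were split by list. Of 43 clusters of further p53 targets 5 were lower and 0 higher, and of 18 of the Bcl-2 family 1 and 0. Of 24 clusters lowered through p21 and DREAM 0 were lower and 3 higher, and of 24 of the p53 family and cofactors 0 and 2. Upstream kinases and sensors had 0 in either direction. The called cluster was Cdkn1a, with 8.004, 8.105, 8.118 and 8.297 in Zfp125 cells, against 8.845, 8.700, 8.775 and 8.874 in EV cells. All Zfp125 arrays were below all EV arrays by a gap wider than the spread of either group. The mean was 8.13 ± 0.12 in Zfp125 cells and 8.80 ± 0.08 in EV cells (SD, n = 4 each), and Cdkn1a fell by 0.67 ± 0.09 on the log2 scale, 1.59-fold lower (limma adjusted p = 0.0364). The call ended in 7 of the 8 cases where 1 array was left out, the exception being Zfp125 replicate 4 (limma adjusted p = 0.0367 to 0.135). It also ended without variance moderation (limma adjusted p = 0.0822) and held with a trended, robust prior (limma adjusted p = 0.00754) and with 1 cluster per gene (limma adjusted p = 0.00297).

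Cdkn1a belongs to a list of further p53 targets with 43 clusters, none of the others called, and the median of the list was 0.01. Igfbp3, an insulin-like growth factor carrier, came next with a change of -0.39 ± 0.12 (limma adjusted p = 0.328). Among 19 clusters of upstream kinases and damage sensors, 0 changed and the median was -0.02. Mdc1, a chromatin mediator of the damage signal, and Atm, the kinase activated by double-strand breaks, had changes of 0.21 ± 0.11 and 0.15 ± 0.09. Among 24 clusters of the p53 family, cofactors and modifiers, 0 changed and the median was 0.06. Rpl5, a ribosomal protein that binds Mdm2, had a change of 0.48 ± 0.12 in a cluster that also names a pseudogene (limma adjusted p = 0.202) and of 0.05 ± 0.14 in its own. Kat5, an acetyltransferase of p53, had 0.31 ± 0.09 (limma adjusted p = 0.31) and -0.01 ± 0.11 in a cluster that also names Rnaseh2c.

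Of 18 clusters of Bcl-2 family genes outside the members, 0 changed and the median was -0.02. Bak1, the pore-forming relative of Bax, had a change of -0.32 ± 0.11 with groups that did not overlap (limma adjusted p = 0.403). Bcl2l2, an antiapoptotic member, had a change of -0.19 ± 0.09. Genes that p53 lowers through p21 and the DREAM complex, most of them for mitosis, had a median of 0.08 over 24 clusters, with 0 called. Of these clusters 18 were above 0 and 6 below, beside 50.3% of all clusters below 0. Top2a and Mybl2 count with more than 1 cluster each, and some Top2a clusters also name Taf1d. Ccnb2, a mitotic cyclin, had 7.12, 7.10, 7.05 and 6.99 in Zfp125 cells, against 6.83, 6.56, 6.73 and 6.65 in EV cells, a change of 0.37 ± 0.09 (limma adjusted p = 0.186). Kif23, a motor of cytokinesis, had a change of 0.59 ± 0.15 (limma adjusted p = 0.227), also with groups that did not overlap.

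**Figure D4:**
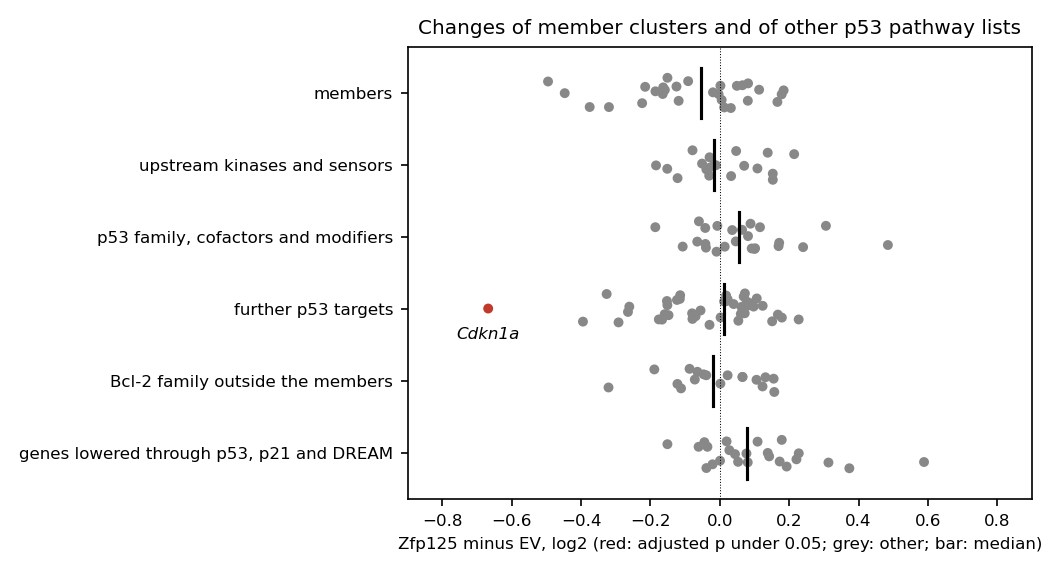
Change (horizontal axis, Zfp125 minus EV on the log2 scale) of each cluster of the members and of 5 other p53 pathway lists; each point is a cluster, the vertical position within a list is random, bars are medians, and red marks an adjusted p under 0.05. Cdkn1a at -0.67 is the only red point, and the median of the last list lies at 0.08.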

How the data were processed

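RNA of 8 samples was measured on Affymetrix MoGene 2.0 ST arrays. The submitters' processing notes name Affymetrix Expression Console and Transcriptome Analysis Console. The authors deposited log2 values, 1 for each cluster and array. The scale was read from the values, while for background correction and normalization the sources used here name no method. The number of arrays limits the precision. Clusters were named through the platform annotation (23521 with 1 symbol, 1814 with several, 16010 unnamed here), with symbols updated to GRCm38.p6 RefSeq through Entrez identifiers for 23328 of the first.

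The deposited values were used without further normalization. Models were fitted across all 41345 clusters with limma 3.58.1 in R 4.3.3 (lmFit, eBayes), without a filter on dim clusters, and p-values were adjusted by Benjamini-Hochberg over all of them. All tests were two-sided. The fit was checked on simulated data. Plots used matplotlib 3.10.9. Named were all members, Cdkn1a, every called gene of the other lists and the 2 with the smallest p in each. The members and lists were chosen with earlier results of these data known. Some genes of the other lists are not analysed here.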

Additional observations from a re-analysis of the deposited data

Results flagged for a closer look

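Of 56 groups of 4 arrays (28 member clusters in 2 groups), 2 held an array far from the other 3 by Dixon's test at its 95% level, and chance gives about 1 in 20. Btg2 was 6.90 on EV replicate 1, while the next EV array was at 6.53 and the lowest at 6.50. Phlda3 was 6.41 on Zfp125 replicate 4, while the other Zfp125 arrays were at 6.55 to 6.56.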

How the results depend on the processing

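With 9 alternatives of the fit and 8 omissions of 1 array, 0 member clusters were called in each, and the smallest adjusted p of a member was 0.0935. The median change of the members lay between -0.09 and -0.03. Of 28 member clusters, 21 kept the sign of their change in all alternatives and 7 did not (Tigar, Phlda3, Sesn1, Polk, Ercc5, Tnfrsf10b and Perp). Member clusters at an unadjusted p under 0.05 numbered 3 to 4 in the alternatives and 2 to 5 without 1 array. Those whose groups did not overlap numbered 3 to 7 without 1 array, which has fewer values to overlap. Over all clusters 61 were called. This count was 94 among clusters above the 25th percentile of means and 232 above the median, 240 with 1 cluster per gene (22180 genes, the clusters with several symbols left out), 196 with a trended, robust prior and 4 without variance moderation. It was 16 to 61 without 1 array. The lower and higher calls were 51 and 10 over all clusters, 146 and 86 above the median of means, 141 and 99 with 1 cluster per gene, and 24 and 15 without EV replicate 1. With the replicate number as a block, limma called 0 clusters, with 3530 at an unadjusted p under 0.05. Same-numbered arrays did not deviate together (correlations of -0.04 to 0.03), so the numbers were not taken to pair the samples. The call in the other pathway lists, that of Cdkn1a, was 0 with the replicate block (adjusted p = 0.161) and 0 without moderation, and 0 to 1 without 1 array. The cause of these differences was not tested. Leaving out an array or adding the block also lowers the residual degrees of freedom. The spread between arrays, with a median SD of 0.12 in Zfp125 and 0.14 in EV over the members, limits what changes can be seen.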
